A study of Mus musculus with 6 samples.

Results

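Transcripts of 10 genes of purine metabolism and signalling were followed in sorted haematopoietic stem cells (HSCs) of the mouse, which renew all blood lineages. They were 3 ectonucleotidases (Enpp1, Nt5e and Entpd1), adenosine deaminase (Ada), 3 adenosine receptors (Adora2a, Adora2b and Adora3), and 3 receptors for purine or sugar nucleotides (P2rx4, P2rx7 and P2ry14). The genes were chosen by name and matched by symbol to Ensembl identifiers, which gave 10 rows of the 49585 in each count table. Bulk RNA sequencing was done on 6 libraries, 3 of CD38-positive and 3 of CD38-negative HSCs, each from cells of 10 mice. The mice were untreated C57BL/6 animals aged 8 to 16 weeks. Both populations were lineage-negative cells that carried Kit, Sca-1, CD150 and CD201 and lacked CD48 and CD34, and they were parted by high or low surface CD38. By the series' design text the libraries form 3 pairs, each of one CD38-positive and one CD38-negative library, called pairs 1, 2 and 3 here. It does not say whether the libraries of a pair share mice. Unless stated otherwise, the p-values below take the pairs as a block. They rest on how the within-pair differences of these pools varied, with information on spread shared over genes.

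CD38 consumes NAD outside the cell and releases ADP-ribose, cyclic ADP-ribose and nicotinamide. In a chain that runs beside the classical breakdown of ATP, ENPP1 cleaves NAD, ADP-ribose or ATP to AMP, and CD73 (Nt5e) removes the phosphate of AMP to give adenosine. CD39 (Entpd1) hydrolyses ATP and ADP to AMP, adenosine deaminase converts adenosine to inosine, and the nucleotides and adenosine act on P2 and P1 receptors on the same or neighbouring cells. The comparison asks whether cells sorted for high CD38, the enzyme at the head of this chain, also differ in transcripts of the steps and receptors downstream of it.

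Totals ranged from 16771180 to 18558610 counts per library, so 1 read is worth 0.0552 to 0.0611 CPM, the unit of read counts scaled to TMM-adjusted library sizes. The labelled cell type was checked on its markers. All 9 HSC markers had reads in every library, but the 10 neutrophil markers together took far more, 7.22% to 14.4% of counts in CD38-positive and 8.56% to 12.3% in CD38-negative libraries. The 6 erythroid markers also took more than the HSC markers in every library, at 0.227% to 0.675% and 0.313% to 0.599%. Those of mast cells, basophils and eosinophils, at 0.0936% to 0.181% and 0.118% to 0.144%, did so except in CD38-negative replicate 2. The 12 monocyte and macrophage markers, a lineage known for P2rx4, P2rx7 and Entpd1, also had reads in every library. Summed, they took 0.102% to 0.111% of counts in CD38-positive and 0.0748% to 0.0800% in CD38-negative libraries, without overlap. Vcam1 and F13a1 held 64.5% of these reads, and without them the sums were 0.0326% to 0.0373% and 0.0281% to 0.0302%. Single markers did not all share this order: 7 of the 12 were higher in the CD38-positive library of all 3 pairs, while Cd68, Ms4a6c and C1qc were lower in 2 pairs and Adgre1 and Cx3cr1 in 1. The sum of B and plasma cell markers, a lineage known for Nt5e, ran the other way, at 0.0332% to 0.0925% and 0.127% to 0.339%. All 9 had reads in every library, 4 were lower in the CD38-positive library of all 3 pairs, 4 were lower in 2 pairs and 1 was higher in all 3. Fewer cells of a type and less RNA per cell cannot be told apart in bulk samples, and the part of these cells' RNA in the levels of the 10 genes was not tested.

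**Figure D1:**
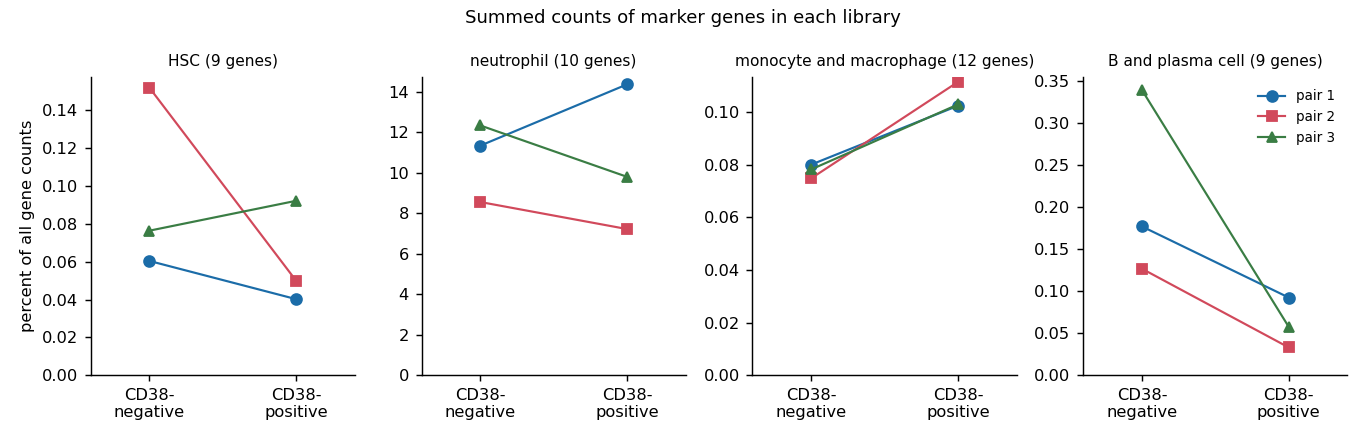
Summed counts of marker lists as a percent of all gene counts, with a line joining the libraries of each pair. The HSC markers are highest, at 0.152%, in the CD38-negative library of pair 2, and the neutrophil markers take 7.22% to 14.4%.

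Of the 10 genes, 9 passed the filter on low counts and 0 of the 9 differed between the populations at an adjusted p-value of 0.05 in edgeR's quasi-likelihood test with the pairs as a block. Across all 14785 genes tested, 2 passed, which is 0.0135%, and without the block 0 did. With the block, 1 of the 2 was a gene of the B and plasma cell marker list. Only 1 gene of the 9, P2ry14, had an unadjusted p-value under 0.05, against 5.08% of all genes (2.47% higher and 2.61% lower). DESeq2 and limma-voom also called 0 of the 9 and had 1 at an unadjusted p-value under 0.05. The fitted values were higher in CD38-positive cells for 5 of the 9 and lower for 4, with a median log2 fold change of 0.029, and 50.1% of all genes were higher. Ada, Nt5e, P2rx4, Entpd1 and Enpp1 had the positive values, and the adenosine receptors Adora2a and Adora2b, with P2rx7 and P2ry14, the negative ones. No direction is read from these signs.

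**Figure D2:**
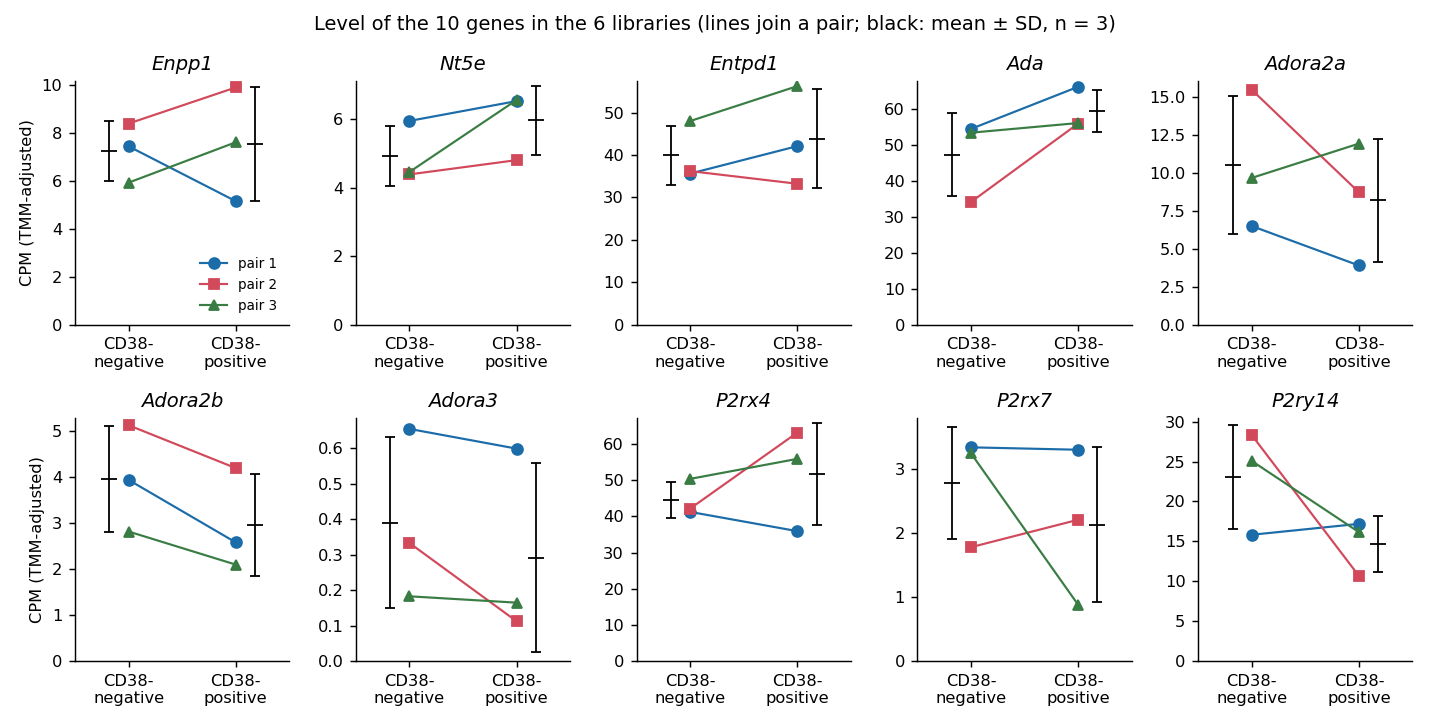
CPM, read counts scaled to TMM-adjusted library sizes, of the 10 genes, with a line joining the CD38-negative and CD38-positive library of each pair and black bars for the mean ± SD (n = 3). P2ry14 has its lowest value, 10.7 CPM, and its highest, 28.3 CPM, in the libraries of pair 2, and the groups of every gene but Ada overlap.

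How strongly the genes were transcribed was compared per length, as CPM per kilobase of annotated exon, averaged over the 6 libraries. Ada was far above the rest at 26.6 CPM per kilobase (17 to 33 over the libraries), a level above that of 85.1% of the tested genes. Entpd1 at 7.51 and P2rx4 at 6.84 came next, and their ranges overlapped. Adora2a (3.06), Adora2b (1.87) and P2ry14 (1.71) lay under the median of all tested genes, 3.91 CPM per kilobase, and each overlapped its neighbour in this order. Enpp1 at 0.722, Nt5e at 0.634 and P2rx7 at 0.412 again overlapped one another and stood at or under the 17.8th percentile of the tested genes. Adora3 was last at 0.0916. Breaks without overlap in this order fell after Ada, after P2rx4 and after P2ry14. The last was narrow, between a lowest P2ry14 value of 0.967 and a highest Enpp1 value of 0.965. These breaks were read with the exon length only. With the longest transcript as the length, the neighbours Entpd1 and P2rx4, Adora2b and P2ry14, and Enpp1 and Nt5e traded places. The transcript of the enzyme that removes adenosine stood above the median, and those of CD73, which produces it, and of ENPP1 below it. Ada is also listed below with purine turnover inside the cell, so these levels do not compare removal and production in one place.

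**Figure D3:**
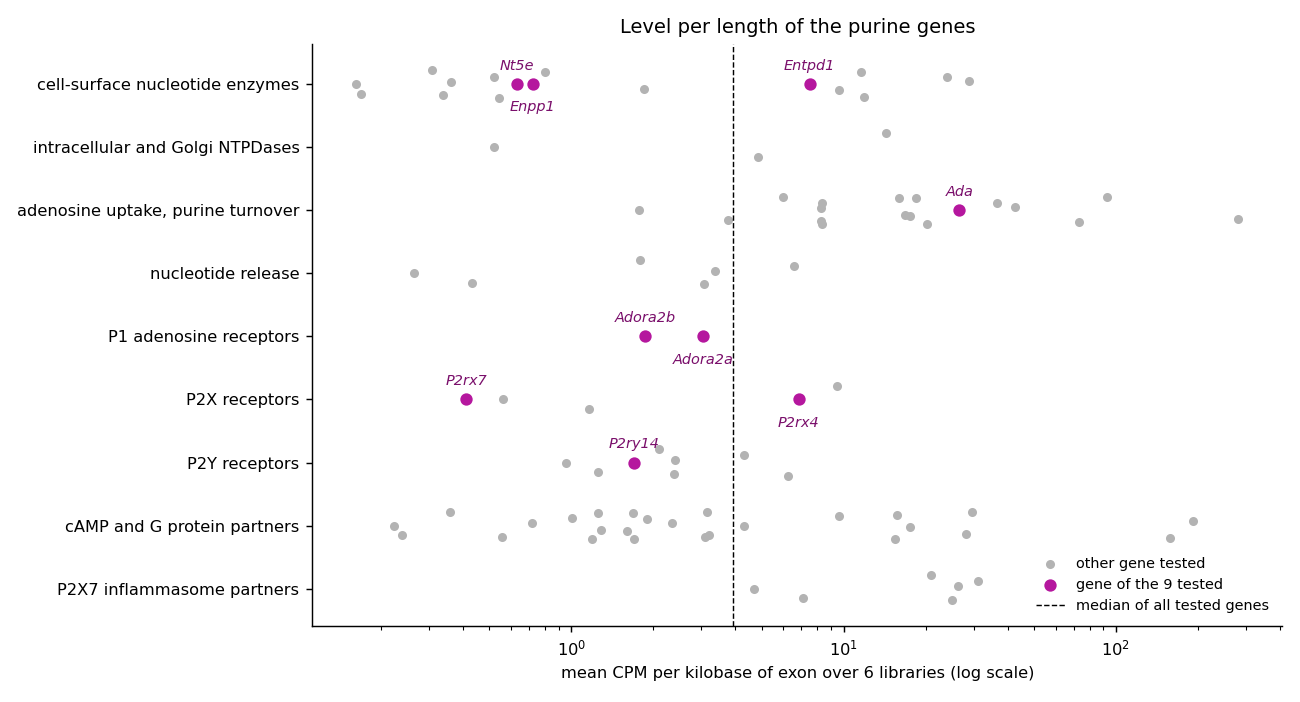
Mean CPM per kilobase of exon over the 6 libraries, on a log axis, of the 9 genes (purple) and of the other tested genes of the same pathway lists (grey), with the median of all tested genes as a dashed line. Ada at 26.6 lies to the right of the median of 3.91, and Nt5e, Enpp1 and P2rx7 lie below 1.

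Because the levels differed so widely, the bases before the start of the genes were compared. RefSeq (build GRCm38.p6) gave promoters for 9 of the 10 genes, and the exception was Adora2a. In the 250 bases before the start, CG dinucleotides numbered 14 for Ada, 13 for P2rx4, 17 for Enpp1, 21 for Nt5e and 22 for Adora2b, against a median of 6 over all RefSeq promoters. Entpd1 had 18 and 8 before its 2 starts. P2rx7 had 6 and 4, the 4 starts of P2ry14 had 1 to 4, and Adora3 had 0. The number did not follow the level, since Nt5e and Adora2b had more of them than Ada. The Nt5e window precedes its RefSeq start but lies inside the gene as annotated here, with all 250 bases in exons. Some windows of Entpd1, P2rx7 and P2ry14 lay partly in exons. The counts do not show which start was used. 4 windows, each outside annotated exons, show the contrast between the gene with the highest level (Ada), the richest window (Adora2b), the gene with the smallest p-value (P2ry14) and the gene with the lowest level (Adora3). The windows of Adora3 and P2ry14 shown lie inside their genes as annotated here, and those of Ada and Adora2b lie before their genes. All 4 read 5′ to 3′ along the gene's strand, with CG dinucleotides in capitals.
Ada, chr2:163750240-163750489, minus strand: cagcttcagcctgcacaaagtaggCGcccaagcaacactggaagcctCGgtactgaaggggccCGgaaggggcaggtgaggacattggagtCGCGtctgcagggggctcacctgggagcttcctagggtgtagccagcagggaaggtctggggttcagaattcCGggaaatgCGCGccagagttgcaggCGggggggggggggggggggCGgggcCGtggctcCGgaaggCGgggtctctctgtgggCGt
Adora2b, chr11:62248734-62248983, plus strand: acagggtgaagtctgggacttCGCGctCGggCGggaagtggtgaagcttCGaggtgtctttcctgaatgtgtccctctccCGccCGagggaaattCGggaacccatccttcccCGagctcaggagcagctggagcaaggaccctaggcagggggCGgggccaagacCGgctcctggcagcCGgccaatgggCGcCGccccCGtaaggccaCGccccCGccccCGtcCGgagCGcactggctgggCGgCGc
P2ry14, chr3:59131329-59131578, minus strand: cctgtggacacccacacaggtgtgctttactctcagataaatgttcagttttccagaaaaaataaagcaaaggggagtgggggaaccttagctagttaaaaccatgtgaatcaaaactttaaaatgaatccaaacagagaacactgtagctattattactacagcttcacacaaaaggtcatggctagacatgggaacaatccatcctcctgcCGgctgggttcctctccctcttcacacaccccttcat
Adora3, chr3:105904171-105904420, plus strand: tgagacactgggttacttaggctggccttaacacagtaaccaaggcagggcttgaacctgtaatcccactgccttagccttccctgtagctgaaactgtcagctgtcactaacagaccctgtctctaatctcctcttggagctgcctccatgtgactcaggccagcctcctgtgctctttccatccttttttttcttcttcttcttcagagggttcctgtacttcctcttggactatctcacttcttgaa

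Because adenosine receptors coupled to cAMP act through CREB, and Fos is part of AP-1, the windows were also searched on both strands for the letters TGACGTCA (the cAMP response element) and TGACTCA (the AP-1 site), neither of which contains the other. The first was in 0 of the 14 windows of these genes and in 1.55% of all 32851 RefSeq windows. The second was in 1 window each of P2ry14, P2rx7 and Adora3, and in 4.46% of all windows. In the Adora3 window above it starts at base 153. A match of letters is not a site of binding.

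Enpp1 (ENSMUSG00000037370, GRCm38 chromosome 10, 24637914 to 24712159, minus strand) encodes the pyrophosphatase that yields AMP. It was at 5.16, 9.90 and 7.61 CPM in CD38-positive replicates 1, 2 and 3 and at 7.44, 8.39 and 5.93 CPM in their CD38-negative partners. The positive library was the lower one in pair 1 and the higher one in pairs 2 and 3, and the groups overlapped. The log2 fold change of CD38-positive over CD38-negative cells was 0.029 (standard error 0.29, edgeR adjusted p = 0.992), and its 95% interval ran from -0.60 to 0.66.

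Nt5e (ENSMUSG00000032420, chromosome 9, 88327197 to 88372092, plus strand) encodes CD73, the step from AMP to adenosine. Its levels were 6.53, 4.81 and 6.57 CPM in the positive libraries and 5.95, 4.39 and 4.46 CPM in the negative ones. It was higher in 3 of 3 pairs, but only in pair 3 by more than counting error, and the groups overlapped. Of the 9 genes, 3 moved one way in all 3 pairs (Nt5e, Ada and Adora2b), against 24.5% of all genes tested. The log2 fold change of Nt5e was 0.27 (standard error 0.30, edgeR adjusted p = 0.943, 95% interval -0.37 to 0.92). Its spread over the 6 libraries, a coefficient of variation of 18.7%, was the smallest of the 10 genes, and its 73 to 119 reads per library give a counting error of 10.3%.

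Entpd1 (ENSMUSG00000048120, chromosome 19, 40612366 to 40741602, plus strand), which encodes CD39, was at 42.1, 33.2 and 56.2 CPM in CD38-positive cells and 35.6, 36.2 and 48.0 CPM in CD38-negative cells. Both libraries of pair 3 stood above the other 4. The pair means were 38.8, 34.7 and 52.1 CPM. In the edgeR test between pairs described below, Entpd1 did not pass (unadjusted p = 0.0784, adjusted p = 0.431). The log2 fold change between populations was 0.12 (standard error 0.20, edgeR adjusted p = 0.962, 95% interval -0.31 to 0.55). The annotation places the genes Gm16027 and Gm8783 within Entpd1 without shared exons, and they had 3 and 0 reads in all.

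Ada (ENSMUSG00000017697, chromosome 2, 163726584 to 163750239, minus strand) was the most abundant of the 10 genes, with 613 to 1102 reads per library. Levels of 66.1, 55.8 and 56.0 CPM in CD38-positive replicates 1, 2 and 3 stood against 54.4, 34.1 and 53.3 CPM in their partners. It was the 1 gene of the 9 whose groups did not overlap, as 6.53% of all tested genes did not, and the gap between 55.8 and 54.4 CPM was narrow. The positive library exceeded its partner 1.22-fold, 1.64-fold and 1.05-fold in pairs 1, 2 and 3, and in pair 3 the difference was within counting error. Group means were 59.3 ± 5.86 CPM (SD, n = 3) and 47.3 ± 11.4 CPM (SD, n = 3). Fitted over the pairs, the log2 fold change was 0.35 (standard error 0.20, edgeR unadjusted p = 0.103, adjusted p = 0.926), with a 95% interval of -0.082 to 0.79.

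Among the adenosine receptors, Adora2a (ENSMUSG00000020178, chromosome 10, 75316877 to 75334784, plus strand), which raises cAMP through Gs, varied most among the 9 tested genes, with a coefficient of variation of 43.4% over the 6 libraries. It was at 3.90, 8.71 and 11.9 CPM in CD38-positive replicates 1, 2 and 3 and at 6.49, 15.5 and 9.66 CPM in the CD38-negative libraries. The positive library was 0.60 and 0.56 times its partner in pairs 1 and 2 and 1.23 times its partner in pair 3, so the pairs disagreed in direction. The fitted log2 difference was -0.41 (standard error 0.30, edgeR adjusted p = 0.932, 95% interval -1.05 to 0.23).

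A second test asked whether the genes differed between the pairs, whichever population was measured. Over all genes 17 passed an adjusted p-value of 0.05 in edgeR, 0.115% of those tested, and 13.5% had an unadjusted p-value under 0.05. None of the 9 genes passed, and DESeq2 called 0 of them. Adora2a was the 1 gene with an unadjusted p-value under 0.05 (0.0115, adjusted p = 0.247 in edgeR). Its pair means were 5.19, 12.1 and 10.8 CPM, so both libraries of pair 1 lay below the other 4. With pair 2 left out, Adora2a differed between pairs 1 and 3 (edgeR adjusted p = 0.0471), in a fit where 6.23% of genes passed. Over all of its fits the adjusted p-value of this test ran from 0.0471 to 0.956.

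The order of the libraries by Adora2a was close to their order by HSC marker genes, a likeness seen only after both were tabulated. The summed counts of 9 HSC markers (Kit, Ly6a, Slamf1, Procr, Mecom, Hlf, Meis1, Hoxb5 and Fgd5) made 0.0402%, 0.0498% and 0.0920% of all gene counts in CD38-positive replicates 1, 2 and 3. In the CD38-negative libraries they made 0.0603%, 0.152% and 0.0763%. For both measures the lowest library was CD38-positive replicate 1 and the highest CD38-negative replicate 2, and the order of the 6 differed only by CD38-positive replicate 2 and CD38-negative replicate 1. Kit and Meis1 held 56.7% of the marker reads, and without them the same libraries were lowest, at 0.0188%, and highest, at 0.0567%. Not every marker had this order, since Slamf1, Procr, Hoxb5 and Fgd5 were highest in CD38-positive replicate 3. Of the 9 markers, 1 was higher in the CD38-positive library of all 3 pairs, 3 were lower and 5 were mixed. The part of cell content in the Adora2a levels was not tested.

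Adora2b (ENSMUSG00000018500, chromosome 11, 62248984 to 62266453, plus strand) encodes the low-affinity Gs-coupled adenosine receptor. It was at 2.58, 4.19 and 2.10 CPM in CD38-positive replicates 1, 2 and 3 and at 3.93, 5.11 and 2.81 CPM in their partners. The positive library was the lower one in 3 of 3 pairs, but the groups overlapped because pair 2 was high and pair 3 low in both. Only in pair 1 was the ratio, 0.656, beyond counting error. With a log2 fold change of -0.44 (standard error 0.35, edgeR adjusted p = 0.932), the 95% interval of -1.18 to 0.31 held both a halving and no change.

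Adora3 (ENSMUSG00000000562, chromosome 3, 105870858 to 105908926, plus strand), a Gi-coupled receptor, was covered by 10, 2 and 3 reads in the CD38-positive and 11, 6 and 3 reads in the CD38-negative libraries and did not pass the filter. Tmigd3 lies on the same strand and shares 779 bases, or 20.9%, of the Adora3 exons, so reads there may have been left out or counted for either gene. Tmigd3 had 51 reads in all against 35 for Adora3. Without the filter the log2 fold change was -0.53 with an edgeR adjusted p of 0.981, and no difference was detectable at this depth. The remaining adenosine receptor, Adora1, had at most 2 reads in a library.

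P2rx4 (ENSMUSG00000029470, chromosome 5, 122707544 to 122729738, plus strand) encodes an ATP-gated cation channel and was the most abundant of the 10 in reads after Ada. It was at 35.9, 63.1 and 55.8 CPM in CD38-positive replicates 1, 2 and 3 and at 41.2, 42.1 and 50.3 CPM in CD38-negative libraries. The CD38-positive library was 0.871 times its partner in pair 1, 1.5 times in pair 2 and 1.1 times in pair 3, each beyond counting error. Differences of opposite sign left a log2 fold change of 0.18 (standard error 0.21, edgeR adjusted p = 0.943, 95% interval -0.27 to 0.63), which was -0.035 without pair 2.

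P2rx7 (ENSMUSG00000029468, chromosome 5, 122643911 to 122691432, plus strand) encodes the channel that opens at high ATP and, in myeloid cells, feeds inflammasome activation. Reads were few, 55, 39 and 16 in the CD38-positive and 56, 32 and 53 in the CD38-negative libraries. In CPM this was 3.30, 2.21 and 0.883 against 3.33, 1.78 and 3.24. CD38-positive replicate 3 stood alone at the bottom, at 0.272 times its partner, and the other pairs differed by no more than counting error. The log2 fold change of -0.47 (standard error 0.47, edgeR adjusted p = 0.936) had the widest 95% interval of the 9 genes, -1.49 to 0.54, and became 0.14 without pair 3.

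P2ry14 (ENSMUSG00000036381, chromosome 3, 59113855 to 59153618, minus strand) encodes a Gi-coupled receptor for UDP-glucose and related sugar nucleotides that has been used as a marker of primitive haematopoietic cells. It was at 17.2, 10.7 and 16.2 CPM in CD38-positive replicates 1, 2 and 3 and at 15.8, 28.3 and 25.1 CPM in their CD38-negative partners. The positive libraries of pairs 2 and 3 were 0.378 and 0.645 times their partners, beyond counting error, while pair 1 had a ratio of 1.09 within it. Group means were 14.7 ± 3.50 CPM (SD, n = 3) and 23.1 ± 6.47 CPM (SD, n = 3), and the groups overlapped. The log2 fold change was -0.64 (standard error 0.29), with a 95% interval, unadjusted for the number of genes, of -1.25 to -0.026. Its unadjusted p-value of 0.0423 in edgeR was the smallest of the 9 genes and ranked 640 of 14785, and the adjusted p-value was 0.926.

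The size of the P2ry14 difference rested on pair 2. Without it the log2 fold change was -0.27 and the unadjusted p-value in edgeR 0.328. Without pair 1 it was -1.02 (edgeR adjusted p = 0.50, the lowest over its alternatives, which ran to 1.0). CD38-negative replicate 2, which had the most P2ry14, also had the most HSC marker reads, 0.152% of its counts against 0.0498% in its partner. Slamf1 alone of the 9 markers ran the other way, at 23.2 CPM there and 29.6 CPM in its partner. In pair 3 the summed HSC marker share ran opposite to P2ry14, at 0.0920% in the CD38-positive library and 0.0763% in its partner. CD38-positive replicate 1 had the lowest share, 0.0402%, and the most P2ry14 of the CD38-positive libraries, 17.2 CPM. The part of HSC marker content in the P2ry14 result was not tested. The P2ry14 exons share no base with those of Med12l, which spans the gene on the opposite strand and had 781 reads against 1954 for P2ry14.

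**Figure D4:**
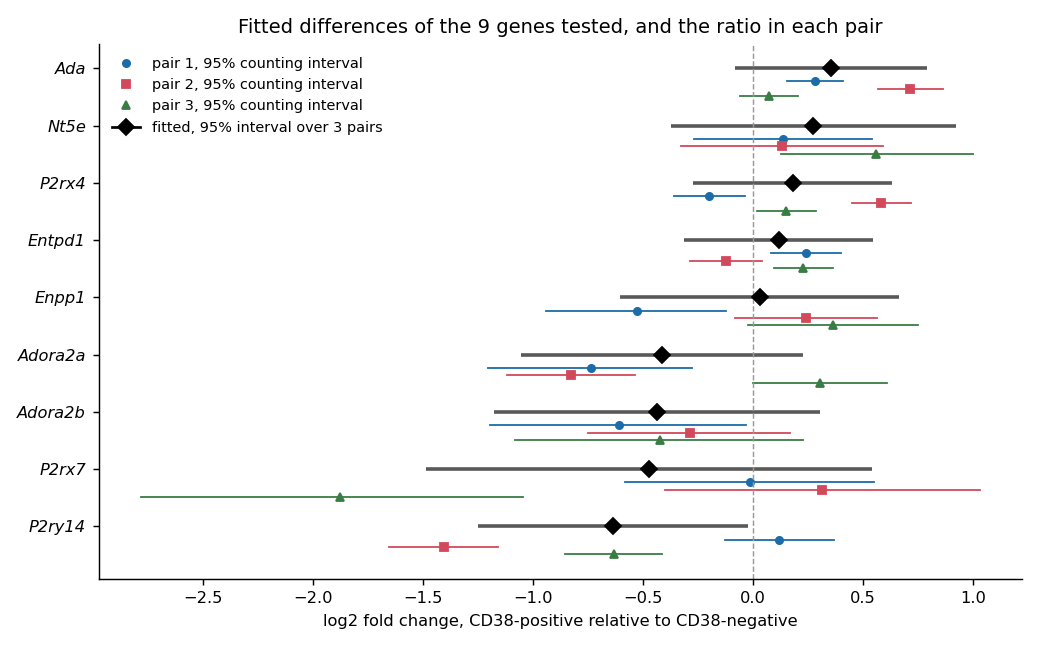
Fitted log2 fold changes of CD38-positive relative to CD38-negative cells for the 9 genes tested (black diamonds, with 95% intervals over the 3 pairs), and below each the ratio within each pair with its exact 95% counting interval. Adora2a and P2rx4 have pairs on both sides of zero beyond counting error, and the interval of P2ry14, -1.25 to -0.026, is the only one that leaves out zero.

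Of the 30 within-pair ratios of the 10 genes, 8 were higher in the CD38-positive library beyond counting error, 8 were lower and 14 were neither. These ratios compare single libraries, with exact Clopper-Pearson 95% intervals. No count over all genes is given beside them, so these numbers cannot be called many or few. Reads counted without molecular identifiers can be copies of one molecule, so these intervals span counting error alone. For 2 of the genes, Adora2a and P2rx4, pairs differed beyond counting error in opposite directions. Cd38 itself was higher beyond counting error in each pair, 1.53-fold, 1.30-fold and 2.44-fold. Its log2 fold change of 0.76 (95% interval 0.27 to 1.24) did not pass the threshold over all genes either (edgeR adjusted p = 0.893). The upper ends of the intervals put a 2-fold excess in CD38-positive cells outside the 95% interval of each of the 9 genes; the largest upper end was 1.89-fold, for Nt5e. On the lower side, 0.5-fold lay within the intervals of Adora2a, Adora2b, P2rx7 and P2ry14. In data simulated with the observed means and spread of the 14785 genes, 45 of 100 genes changed 2-fold were called and 97 of 100 genes changed 4-fold. Both sets were changed in the same simulation and drawn from genes above a limit on mean counts. With so many true changes the adjustment is milder than in the measured data, where 2 genes passed. The simulated shares may therefore overstate the power for the 9 genes.

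The wider receptor families were read from lists of P1, P2X and P2Y receptor genes. Of 20 such genes, 15 were tested, with 6 higher and 9 lower fitted values and 0 past the threshold in edgeR. Unadjusted p-values under 0.05 were found for 2, P2ry14 and P2ry10, both lower in CD38-positive cells, as were 2.61% of all genes. P2ry10, a receptor for lysophospholipids in the P2Y-related group, was read 75, 56 and 101 times in CD38-positive replicates 1, 2 and 3, and 104, 213 and 193 times in their partners. Every positive library was below every negative one, at 3.17 to 5.57 CPM against 6.19 to 11.8 CPM. For P2ry10 the log2 fold change was -1.15 (standard error 0.33, edgeR unadjusted p = 0.00336, adjusted p = 0.888). Pair 2 again had the largest difference, -1.86, against -0.45 and -1.07 in pairs 1 and 3.

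Of the P2X receptors, P2rx1, a channel known from platelets, had the highest level at 9.46 CPM per kilobase and a log2 fold change of -0.16. P2rx3 (1.16 CPM per kilobase) had -0.012 and P2rx6 (0.561 CPM per kilobase) -0.35, with edgeR adjusted p-values of 0.998 and 0.944. P2rx2 and P2rx5 did not pass the filter, with at most 4 reads in a library. Among P2Y receptors P2ry4 had 0 reads in all 6 libraries, which with a floor of 3 reads allows up to 0.183 CPM.

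**Figure D5:**
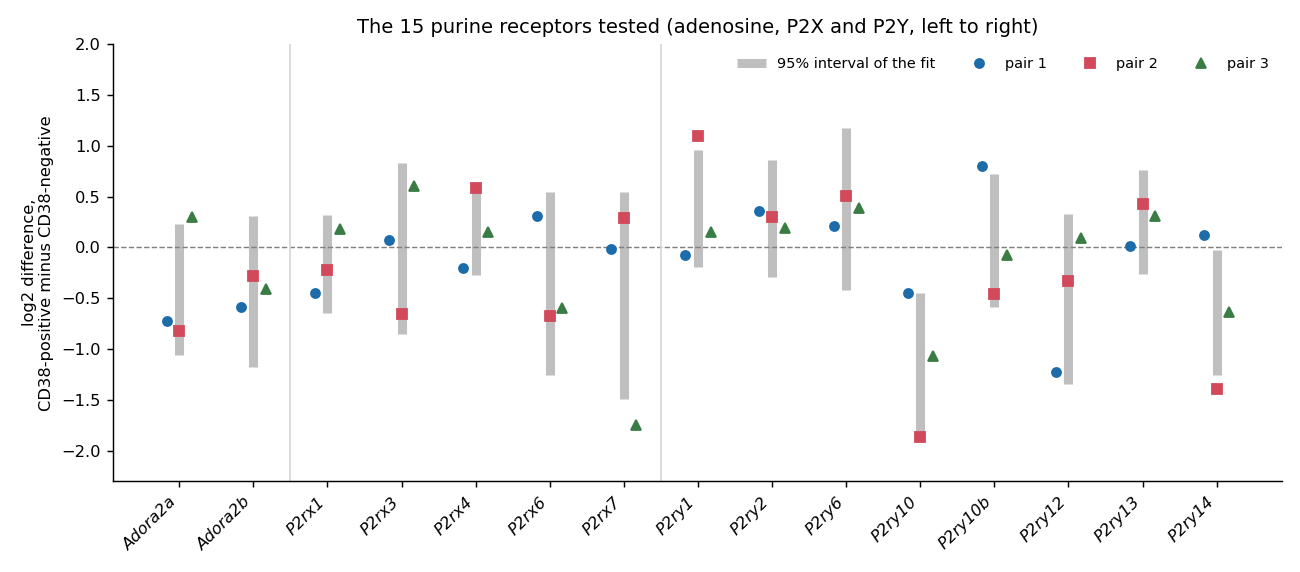
Log2 differences between the libraries of each pair (from log2 CPM with a prior count of 2) for the 15 receptors tested, over the 95% interval of the fit (grey bars). P2ry10 lies below zero in all 3 pairs, at -0.45, -1.86 and -1.07, and P2ry14 in pairs 2 and 3.

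The enzymes around the 10 genes were read in the same way. Of 20 listed genes, chiefly cell-surface enzymes that act on nucleotides or NAD but also others such as the peptidase Dpp4, 17 were tested. Fitted values were higher for 11 and lower for 6, and 0 passed. The 2 at an unadjusted p-value under 0.05 in edgeR were Cd38 and Enpp6, a choline-specific phosphodiesterase. Both were higher in CD38-positive cells, as were 2.47% of all genes tested at this level. Enpp6 had 24, 17 and 39 reads in the positive libraries against 9, 0 and 19, a log2 fold change of 1.78 (standard error 0.69, edgeR adjusted p = 0.925). The median of this list was 0.12. Cd38, whose protein the cells were sorted on, is included in these counts and this median. Among intracellular NTPDases, Entpd5 at 14.4, Entpd6 at 4.86 and Entpd7 at 0.519 CPM per kilobase had log2 fold changes of -0.11, 0.19 and -0.30.

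Adenosine uptake and purine turnover inside the cell were covered by 25 listed genes, of which 18 were tested. Higher fitted values were found for 14 and lower for 4, 0 passed, and 0 had an unadjusted p-value under 0.05 in edgeR. The list median was 0.10. The most abundant were the salvage enzyme Hprt, the nucleotidase Nt5c3 and the salvage enzyme Aprt, at 281, 92.7 and 73.2 CPM per kilobase, with log2 fold changes of 0.24, 0.081 and 0.053. Genes of nucleotide release numbered 9, with 6 tested and none called or at an unadjusted p-value under 0.05. Slc17a9, the vesicular nucleotide transporter, led them at 6.59 CPM per kilobase with a log2 fold change of 0.071, before the gap junction gene Gja1 (3.37 CPM per kilobase, -0.16) and Calhm2 (3.08 CPM per kilobase, 0.21).

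The genes most like the 2 members with the highest CPM were taken from the Pearson correlation of log2 CPM over the 6 libraries, as a description. For Ada they were Gm45405, 4930432K21Rik and Degs1, at r of 0.996, 0.988 and 0.987, and 263 genes (1.78%) were above 0.9. For P2rx4 they were Dtwd2, Cct4 and D16Ertd472e, at 0.993, 0.993 and 0.988, with 187 genes (1.26%) above 0.9. With 6 points drawn from 3 pairs, values this high arise among many genes.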

How the data were processed

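Cells were sorted straight into lysis buffer, per the labels' protocols. The authors deposited raw read counts per Ensembl gene, one table per library; the submitters' processing notes list cutadapt, STAR, HTSeq 0.6.1p1 and the builds GRCm38 and mm10. The strand setting and annotation release are not given in the sources used here, so overlapping genes are uncertain. Symbols matched 49326 of 49585 identifiers, and coordinates and exon lengths came from GENCODE M21 (GRCm38), whose release may differ from that behind the counts.

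In R 4.3.3, edgeR's filterByExpr kept 14785 genes, which were scaled by TMM and tested in edgeR 4.0.16 (estimateDisp, glmQLFit in its legacy form, glmQLFTest) on pair plus population over all 6 libraries, with Benjamini-Hochberg adjustment over all genes. The block follows the pairs of the series' design text; within pairs 1, 2 and 3 the deviations from the population mean had correlations of 0.34, 0.12 and 0.24. No library was a second copy of another of its population (chi-square 51.5 to 116 per degree of freedom). Standard errors and 95% intervals were derived from the quasi-F statistic. Pairs were compared by the F-test of the pair terms. Tested on simulated data for 14785 genes, the procedure called 7 unchanged genes and gave no called gene the wrong sign. The alternatives were no block, DESeq2 1.42.0, limma-voom (limma 3.58.1), other scalings and filters, leaving out each pair and, added after seeing the data, edgeR's newer estimator. A gene of the HSC marker list is not reported here and was left out of its sums. The 10 genes and the lists were chosen with earlier results of these data known. Named genes are the 10 and Cd38. From each list come the others with an unadjusted p-value under 0.05 or, failing any, the 3 most abundant per length. A further gene is named only where it overlaps or had too few reads to test, and Il18 as a second cytokine beside Il1b.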

Additional observations from a re-analysis of the deposited data

How the results depend on the processing

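Of 99 alternative values for the 9 genes, 95 kept their sign and none crossed the threshold. The 4 that changed sign were Enpp1 without pair 2 (-0.093) and without pair 3 (-0.14), P2rx4 without pair 2 (-0.035) and P2rx7 without pair 3 (0.14); with a pair left out these genes ranged from -0.14 to 0.30, -0.035 to 0.37 and -0.87 to 0.14. None of the 10 genes was called between the populations under any alternative; over the pairs left out in turn, 0 to 1 were called between pairs (Adora2a, without pair 2) and 0 to 1 of the other list genes between populations (Cd38, without pair 2). The count of all genes called between the populations, 2 with the replicate block, was 0 with no replicate block and with unscaled totals, 11 in DESeq2, 7 with DESeq2 size factors, 80 with no filter, 13 with a mean of at least 10 counts, 6 with the newer estimator and 2 to 41 when a pair was left out. Between pairs the 17 became 329, 7, 694, 29 and 46 in DESeq2, with unscaled totals, with no filter, with a mean of at least 10 counts and with the newer estimator, and 5 to 933 when a pair was left out. By the longest transcript 4 of the 10 genes kept their place in the order of levels, and 6 to 10 did when a pair was left out. The cause was not tested. Scaling moved the median of all genes by less than 0.1 on the log2 scale. Differences below 3 reads (0.166 to 0.183 CPM) were not detectable, which limits Adora3 most.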

Other observations

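The partners through which these receptors signal were listed with them and hold no called gene. Of 30 genes of cAMP and G protein signalling, 26 were tested, 10 with higher and 16 with lower fitted values in CD38-positive cells and 0 past the threshold in edgeR. The 2 at an unadjusted p-value under 0.05 in edgeR were both lower, as were 2.61% of all genes tested, and the groups of both overlapped. Pde4b, a phosphodiesterase that degrades cAMP, was at 18.6, 23.8 and 31.8 CPM in CD38-positive replicates 1, 2 and 3 and at 23.2, 63.5 and 35.2 CPM in their partners. It was lower in 3 of 3 pairs, the difference in pair 2 (-1.41) was far larger than those in pairs 1 and 3 (-0.31 and -0.15), and the log2 fold change was -0.62 (standard error 0.26, edgeR adjusted p = 0.925). Gnai1, an inhibitory G protein subunit, had 2, 14 and 6 reads against 17, 23 and 11, a log2 fold change of -1.37 (standard error 0.64, edgeR adjusted p = 0.926).

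Of 7 genes that act with the P2X7 channel in the inflammasome, 6 were tested and 0 passed in edgeR. Fitted values were higher for 3 and lower for 3, with a median log2 fold change of -0.070. Nlrp3, with 1 to 11 reads per library, was not tested. Il18, a cytokine of this list, had a log2 fold change of -0.43 (standard error 0.24, edgeR adjusted p = 0.926). Il1b, also a cytokine released by this route, was the 1 gene with an unadjusted p-value under 0.05 in edgeR, against 5.08% of all genes tested. It was at 20.1, 15.8 and 12.4 CPM in CD38-positive replicates 1, 2 and 3 and at 14.8, 10.7 and 7.52 CPM in their partners. It was higher in 3 of 3 pairs while the groups overlapped, with a log2 fold change of 0.58 (standard error 0.24, edgeR unadjusted p = 0.0330, adjusted p = 0.925). The summed reads of the 12 monocyte and macrophage markers were also higher in the CD38-positive library of each pair, although 5 of the 12 were lower there in 1 or 2 pairs, and their part in this difference was not tested.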
